A study of Mus musculus with 8 samples.

Results

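Chemokine receptors steer helper T cells, and 9 of their genes are described here: Ccr2, Ccr4, Ccr6, Ccr7, Ccr8, Cxcr3, Cxcr4, Cxcr5 and Cxcr6. They were taken by symbol from a table of 54532 genes, each matched 1 row, and all 9 were among the 14428 genes that passed a filter on low counts. CD4 T cells of mouse spleen were cultured for 2 days toward pathogenic Th17 cells, and their RNA was sequenced in 4 libraries labelled Cyp1b1 knockout (Cyp1b1-/-) and 4 labelled wild type. The sources used here do not give strain, age, the agents in the culture medium or the design of the Cyp1b1 allele. Nor do the labels say whether replicates were separate mice or cultures, and p-values therefore cover the spread among these 8 libraries alone, which could be technical.

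Library totals ran from 8918342 to 15667313 counts. Cyp1b1 itself, the targeted gene, had 134 to 231 CPM (counts scaled to the depth of the library) in the libraries labelled knockout and 3.75 to 4.74 CPM in those labelled wild type, which goes against the labels (log2 fold change 5.39, SE 0.24, edgeR adjusted p = 9.91e-07). Counts per gene do not show which exons were read, and every direction given here rests on the labels as deposited. The defining genes of CD4 T cells were present in all libraries, with Cd4 at 624 ± 18.4 CPM in libraries labelled knockout and 693 ± 40.3 CPM in those labelled wild type, and Cd3e at 201 ± 11.9 CPM with the knockout label and 186 ± 16.1 CPM with the wild-type label (SD, n = 4 each). The libraries of one label were not uniform: in a principal component of the deviations from the label means, knockout-labelled libraries 1 and 4 and wild-type-labelled library 1 lay on one side and the other 5 on the opposite side. For Ccr2, Cxcr3 and Cxcr4 values are given for each pair of knockout-labelled libraries.

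Chemokines are small secreted proteins that form gradients in tissue, and their receptors are membrane proteins that signal through inhibitory G proteins to move a cell toward the source. Naive T cells carry CCR7 and CXCR4, which hold them in lymphoid organs. Activated helper cells replace or add receptors by lineage: CCR6 is typical of Th17 cells, CXCR3 of Th1 cells, CCR4 and CCR8 of Th2 and regulatory T cells, and CXCR5 of follicular helper cells, while CCR2 and CXCR6 mark effector cells that enter inflamed tissue.

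The bases before the start of Ccr6, of Cxcr6 and of Cxcr3 are shown because these receptors moved in both directions: Ccr6 and Cxcr6 were lower, and Cxcr3 higher, in the libraries labelled knockout. The sequences are RefSeq's, on GRCm38.p6, each covering 250 bases before the annotated start on the strand of the gene. They are chr17:8235793-8236042 (plus strand) for Ccr6, chr9:123806227-123806476 (plus strand) for Cxcr6 and chrX:101734148-101734397 (minus strand) for Cxcr3. Capitals mark matches on either strand to 4 motifs: GCGTG, the core bound by the aryl hydrocarbon receptor, AGGTCA, a site of nuclear receptors, TGANTCA, the AP-1 site, and TTCNNNGAA, the STAT site.
Ccr6: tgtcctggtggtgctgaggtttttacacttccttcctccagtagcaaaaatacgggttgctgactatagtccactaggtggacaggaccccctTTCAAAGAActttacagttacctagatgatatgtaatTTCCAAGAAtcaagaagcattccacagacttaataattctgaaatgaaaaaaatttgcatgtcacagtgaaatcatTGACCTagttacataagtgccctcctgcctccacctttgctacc
Cxcr6: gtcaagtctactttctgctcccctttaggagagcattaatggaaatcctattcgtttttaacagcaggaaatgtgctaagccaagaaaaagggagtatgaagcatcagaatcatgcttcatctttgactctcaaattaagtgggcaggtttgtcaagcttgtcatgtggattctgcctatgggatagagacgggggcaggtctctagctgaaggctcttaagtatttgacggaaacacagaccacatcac
Cxcr3: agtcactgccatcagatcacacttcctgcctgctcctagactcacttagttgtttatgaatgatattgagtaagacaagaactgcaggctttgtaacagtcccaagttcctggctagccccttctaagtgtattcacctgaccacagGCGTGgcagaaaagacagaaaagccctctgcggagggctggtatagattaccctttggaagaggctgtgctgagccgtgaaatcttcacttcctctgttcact

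The Ccr6 window held TTCNNNGAA at -157 to -149 and at -120 to -112 and AGGTCA, on the minus strand, at -44 to -39, counting back from -1 just before the start. The Cxcr3 window held GCGTG at -103 to -99, and the Cxcr6 window held none of the 4. None of these matches overlapped another. Among 32851 windows of the same length, GCGTG was found in 28.2%, AGGTCA in 14.0%, TGANTCA in 6.75% and TTCNNNGAA in 7.02%. Windows were at hand for 7 of the 9 genes. Among the rest, Ccr8 and Cxcr4 held GCGTG, Ccr4 held TGANTCA, and Ccr2 and a second start of Ccr6 held none. The starts used for the windows are RefSeq's, and some lie inside the gene as deposited. Cxcr3 was deposited at 101731535 to 101734269 (chromosome X, minus strand), so its GCGTG match falls within that span. The TGANTCA match of Ccr4 likewise falls within its deposited gene. A match describes letters and does not show that a factor binds.

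Of the 9 receptors, 6 fell, 2 rose and 1 did not pass in the libraries labelled knockout, by edgeR's quasi-likelihood test with an adjusted p under 0.05. Ccr6, Cxcr5, Cxcr6, Ccr8, Ccr2 and Ccr4 fell, Cxcr3 and Ccr7 rose, and Cxcr4 did not pass. Changes were common in these data: 30.4% of all tested genes passed, 14.6% as lower and 15.7% as higher. Scaling by library totals alone moved the share of higher calls among all called genes to 39.4%, against 51.9% here, and left the receptor counts at 6 and 2. With knockout-labelled libraries 2 and 3 alone, 5 receptors passed as lower and 1 as higher. The libraries of the labels did not overlap for 6 of the 9 receptors, lower for 5 and higher for 1, against 29.2% of all tested genes (14.1% lower, 15.1% higher). The median log2 fold change was -0.36 over the 9 receptors and -0.001 over all tested genes.

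**Figure D1:**
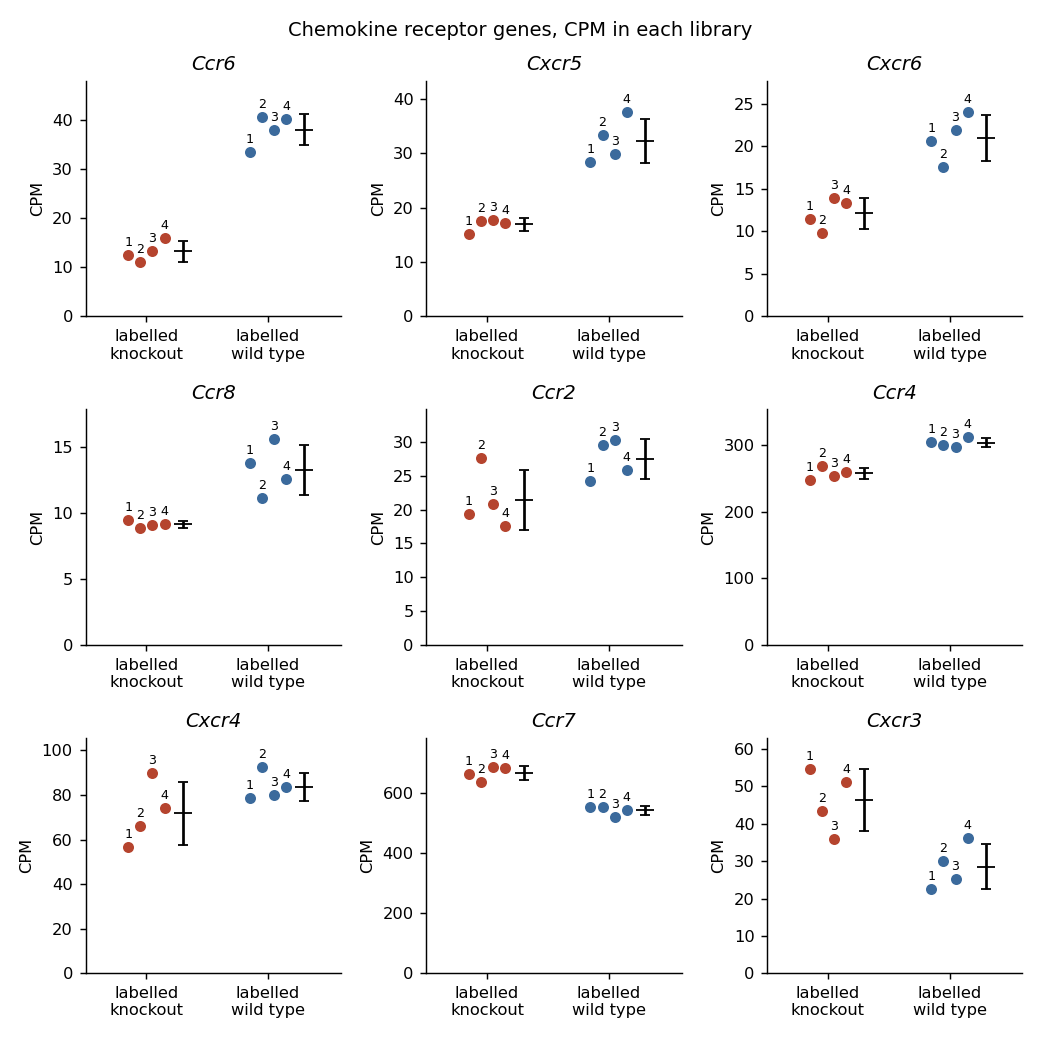
CPM of each receptor gene (vertical axis, from 0) in the 4 libraries labelled knockout (red, left) and the 4 labelled wild type (blue, right), numbered by replicate, with the mean and SD in black. Ccr6 lies between 11.1 and 16.1 CPM in the libraries labelled knockout and between 33.6 and 40.7 CPM in those labelled wild type. For Cxcr4, knockout-labelled library 3 lies among the wild-type-labelled ones at 89.9 CPM.

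Ccr6, the receptor for CCL20 that draws Th17 cells to mucosa and inflamed tissue, had the largest change of the 9. It had 12.5, 11.1, 13.4 and 16.1 CPM in knockout-labelled libraries 1 to 4, against 33.6, 40.7, 38.1 and 40.2 CPM in wild-type-labelled libraries 1 to 4. The highest knockout-labelled value was below the lowest wild-type-labelled one by a wide margin. The fold change was 2.87 toward wild type (log2 -1.52, SE 0.11, edgeR adjusted p = 4.89e-10), the 39th smallest p among all tested genes. Ccr6 lies on chromosome 17 at 8236043 to 8257141 (plus strand, GRCm38), 71.4 Mb from Cyp1b1 on the same chromosome.

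Cxcr6, the CXCL16 receptor of tissue-resident and effector T cells, was also lower. It had 11.5, 9.85, 13.9 and 13.3 CPM in knockout-labelled libraries 1 to 4, against 20.6, 17.5, 22.0 and 24.0 CPM in wild-type-labelled libraries 1 to 4. The groups did not overlap, and the mean was 12.1 ± 1.84 CPM with the knockout label and 21.0 ± 2.72 CPM with the wild-type label (SD, n = 4 each; log2 fold change -0.80, SE 0.13, edgeR adjusted p = 3.55e-05). Cxcr6 (chromosome 9, 123806475 to 123811760, plus strand) lies within the span of Fyco1 on the other strand, which had 599 to 925 counts per library and also fell (log2 fold change -0.30, SE 0.076, edgeR adjusted p = 0.00441). Since no strand-marking step is named, reads of the pair may not have been told apart.

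Ccr2, the receptor for CCL2 on monocytes and inflammatory T cells, fell by a small amount that depended on single libraries. It had 19.4, 27.7, 20.8 and 17.5 CPM in knockout-labelled libraries 1 to 4, against 24.3, 29.5, 30.3 and 25.8 CPM in wild-type-labelled libraries 1 to 4. Knockout-labelled library 2 lay among the wild-type-labelled ones, so the groups overlapped (log2 fold change -0.36, SE 0.12, edgeR adjusted p = 0.0265). The call ended without knockout-labelled library 1, 3 or 4 or wild-type-labelled library 2 or 3, with adjusted p from 0.0551 to 0.105. The log2 fold change was -0.56 with knockout-labelled libraries 1 and 4 alone and -0.17, not passing, with 2 and 3 alone (edgeR adjusted p = 0.000633 and 0.366). Ccr2 shares coding sequence with other receptor genes, and the sources used here do not say how reads matching more than 1 gene were counted.

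Among receptors tied to Th2 and regulatory T cells, Ccr8 and Ccr4 fell. Ccr8, a receptor for CCL1 and CCL8 in mice, had 9.48, 8.88, 9.07 and 9.20 CPM in knockout-labelled libraries 1 to 4, against 13.8, 11.1, 15.6 and 12.6 CPM in wild-type-labelled libraries 1 to 4. The knockout-labelled values lay within a narrow band below every wild-type-labelled value (log2 fold change -0.54, SE 0.13, edgeR adjusted p = 0.00247). Ccr4, the receptor for CCL17 and CCL22, had 248, 268, 254 and 259.5 CPM in knockout-labelled libraries 1 to 4, against 304, 301, 297 and 312 CPM in wild-type-labelled libraries 1 to 4. The spread within each label was small, and the groups did not overlap although the fall was only 15.2% (log2 fold change -0.24, SE 0.058, edgeR adjusted p = 0.00336).

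Cxcr3, the Th1 receptor for CXCL9, CXCL10 and CXCL11, had the larger of the 2 rises. It had 54.5, 43.3, 36.0 and 51.1 CPM in knockout-labelled libraries 1 to 4, against 22.5, 30.1, 25.1 and 36.2 CPM in wild-type-labelled libraries 1 to 4. All but 1 pair of libraries were apart, since knockout-labelled library 3 fell just below wild-type-labelled library 4 (log2 fold change 0.70, SE 0.15, 1.63-fold, edgeR adjusted p = 0.00326). With knockout-labelled libraries 1 and 4 alone the log2 fold change of Cxcr3 was 0.90, with 2 and 3 alone it was 0.49 and did not pass (edgeR adjusted p = 0.0523), and with 2 and 3 against wild-type-labelled libraries 2, 3 and 4 it was 0.39 and passed (edgeR adjusted p = 0.0291).

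The receptors that guide cells within lymphoid organs went separate ways. Ccr7, which brings T cells to CCL19 and CCL21 in the T cell zone, had 663.5, 636, 687.5 and 681 CPM in knockout-labelled libraries 1 to 4, against 552, 554, 521 and 543 CPM in wild-type-labelled libraries 1 to 4. Each knockout-labelled library was above each wild-type-labelled one (log2 fold change 0.30, SE 0.056, 23.0% higher, edgeR adjusted p = 0.000298).

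Cxcr5, which brings follicular helper cells and B cells to CXCL13 in follicles, had 15.1, 17.5, 17.8 and 17.2 CPM in knockout-labelled libraries 1 to 4, against 28.4, 33.3, 29.8 and 37.5 CPM in wild-type-labelled libraries 1 to 4. This was the second largest change of the 9, with no overlap (log2 fold change -0.93, SE 0.10, 1.91-fold toward wild type, edgeR adjusted p = 4.20e-07). Its locus (chromosome 9, 44511787 to 44561877, minus strand) overlaps Bcl9l on the plus strand, which had 465 to 868 counts and did not pass (log2 fold change -0.084, SE 0.10, edgeR adjusted p = 0.57).

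Cxcr4, the CXCL12 receptor of most leukocytes, had 56.7, 66.2, 89.9 and 74.3 CPM in knockout-labelled libraries 1 to 4, against 78.5, 92.4, 80.0 and 83.7 CPM in wild-type-labelled libraries 1 to 4. The knockout-labelled libraries were spread over a wide range, and library 3 of them lay among the wild-type-labelled ones. The log2 fold change was -0.22 (SE 0.11, 95% interval -0.44 to 0.004, edgeR adjusted p = 0.129), an interval that leaves room for a fall of about the size seen for Ccr2. Without knockout-labelled library 3 it passed as lower at -0.34 (edgeR adjusted p = 0.00646), as it did with knockout-labelled libraries 1 and 4 alone (-0.34, edgeR adjusted p = 0.00809). It did not pass with knockout-labelled libraries 2 and 3 alone (-0.094, edgeR adjusted p = 0.57), with these against wild-type-labelled libraries 2, 3 and 4 (-0.12, edgeR adjusted p = 0.492) or without knockout-labelled library 1 (-0.12, edgeR adjusted p = 0.359).

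**Figure D2:**
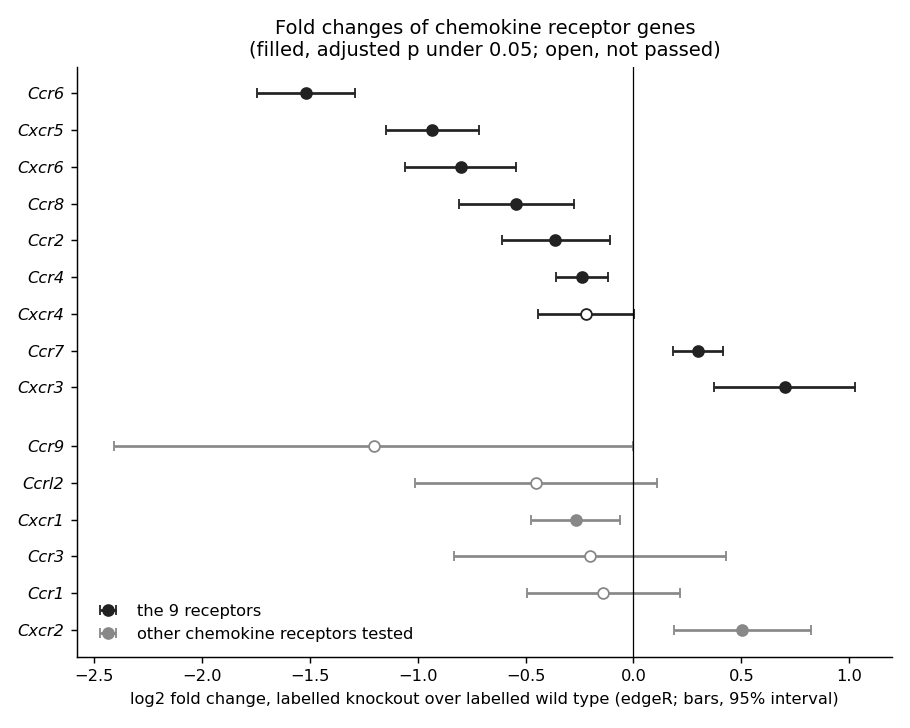
Log2 fold change of each gene, labelled knockout over labelled wild type (horizontal axis), from edgeR with its 95% interval; the 9 receptors are black, 6 other tested chemokine receptors grey, and filled points passed an adjusted p of 0.05. Ccr6 at -1.52 lies farthest left of the 9 and Cxcr3 at 0.70 farthest right, and the interval of Cxcr4 reaches 0.004.

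Per length, Ccr7 was the most abundant of the 9 with either label, followed by Ccr4. Mean levels of Ccr7 were 337 ± 11.6 CPM per kilobase with the knockout label and 274 ± 7.55 CPM per kilobase with the wild-type label (SD, n = 4 each), and those of Ccr4 were 83.2 ± 2.76 CPM per kilobase with the knockout label and 98.1 ± 2.13 CPM per kilobase with the wild-type label. Ccr7 therefore made up 65.5% of the summed level of the 9 with the knockout label and 56.3% with the wild-type label.

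Below them the order differed between labels. With the knockout label it ran Cxcr4, Cxcr3, Ccr8, Cxcr6, Ccr6, Cxcr5 and Ccr2, from 39.7 to 3.16 CPM per kilobase, with neighbours overlapping in range for Cxcr4 and Cxcr3, for Cxcr6 and Ccr6, and for Ccr6 and Cxcr5. With the wild-type label it ran Cxcr4, Cxcr3, Ccr6, Ccr8, Cxcr6, Cxcr5 and Ccr2, from 46.3 to 4.06 CPM per kilobase, with overlaps for Cxcr3 and Ccr6, for Ccr8 and Cxcr6, and for Cxcr6 and Cxcr5. Ccr6 stood at 5.72 ± 0.90 CPM per kilobase with the knockout label and at 16.4 ± 1.39 with the wild-type label, where it was level with Cxcr3.

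Ratios of 2 receptors within a library do not depend on how libraries are scaled. The count ratio of Ccr6 to Cxcr3 was 0.230, 0.256, 0.372 and 0.315 in knockout-labelled libraries 1 to 4, against 1.49, 1.35, 1.52 and 1.11 in wild-type-labelled libraries 1 to 4. Ccr6 counts were thus below Cxcr3 counts in each knockout-labelled library and above them in each wild-type-labelled one. The mean log2 ratio differed by -2.24, and that of Ccr6 to Ccr7 by -1.83. Each gave p = 0.0286 in an exact two-sided permutation test, which is the smallest that 70 assignments allow and is unchanged by adjustment over these 2 ratios. In every knockout-labelled library Ccr6 was already below, and Ccr7 above, all wild-type-labelled values. The p of the Ccr6 to Ccr7 ratio was therefore fixed in advance and adds no evidence. The same holds for Ccr6 to Cxcr3, whose separation followed from the ranges of the 2 genes. With the knockout label Ccr6 was at most 16.1 CPM and Cxcr3 at least 36.0 CPM. With the wild-type label Ccr6 was at least 33.6 CPM and Cxcr3 at most 36.2 CPM. Both ratios share Ccr6 and were chosen with earlier results of these data known.

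**Figure D3:**
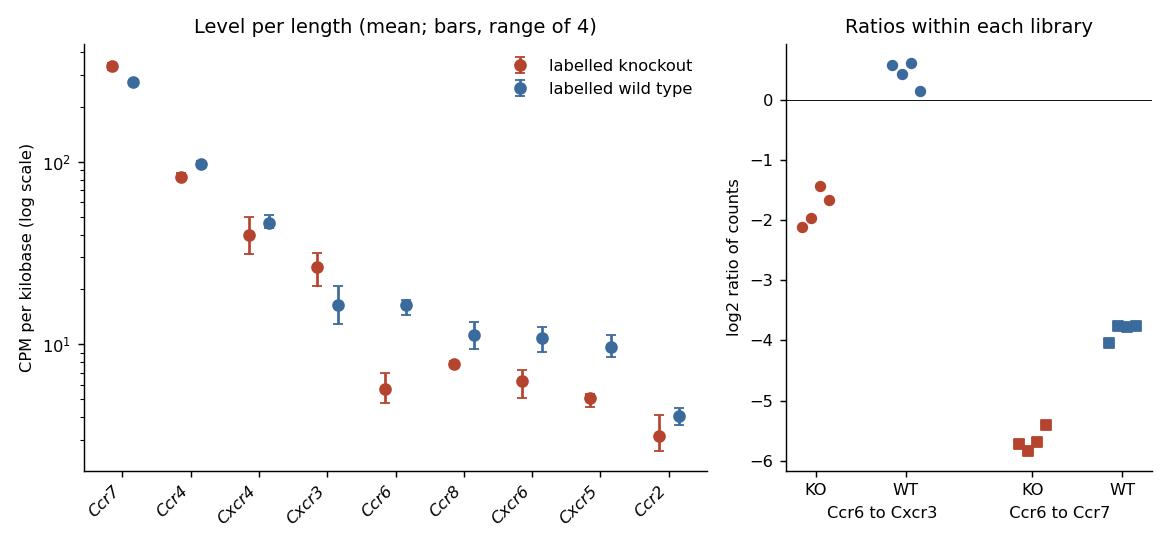
Left, level of each receptor in CPM per kilobase (log axis) as the mean and range of 4 libraries, labelled knockout in red and labelled wild type in blue. Right, log2 ratio of counts of Ccr6 to Cxcr3 (circles) and of Ccr6 to Ccr7 (squares) in each library, where KO and WT stand for the labels; the Ccr6 to Cxcr3 values lie below 0 with the knockout label and above 0 with the wild-type label.

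Genes of other cell types moved with these changes. Of 15 B cell markers, 13 fell, none rose and 2 did not pass. Their summed level ran from 417 to 581 CPM with the knockout label and from 530 to 801 CPM with the wild-type label (exact two-sided permutation p = 0.0857, adjusted over 5 marker lists 0.107). Ighm made up much of that sum, and without it the range was 138 to 163 CPM with the knockout label and 242 to 344 CPM with the wild-type label (exact two-sided permutation p = 0.0286). None of the 15 was at 0 in all libraries. B cells express Cxcr5, Ccr6, Ccr7 and Cxcr4, of which the first pair fell and Ccr7 rose here. The part of B cells in the receptor values was not tested, and in bulk RNA fewer cells of a type and less RNA per cell cannot be told apart.

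Markers of myeloid, NK and CD8 T cells were at low levels. Of 10 myeloid markers only Cd68 passed the filter, and it fell (log2 fold change -0.90, SE 0.17, edgeR adjusted p = 0.000228). The myeloid sum was 6.60 to 9.72 CPM with the knockout label and 13.7 to 17.4 CPM with the wild-type label (exact two-sided permutation p = 0.0286, adjusted 0.0715). Cd68 made up most of that sum, with means of 6.51 CPM with the knockout label and 12.3 CPM with the wild-type label. S100a9 was at 0 in all libraries. Of 7 NK and CD8 T cell markers 5 were tested and only Gzma fell. The sum of the 7 was 23.8 to 32.2 CPM with the knockout label and 33.4 to 37.7 CPM with the wild-type label (exact two-sided permutation p = 0.0286, adjusted 0.0715, and exact p = 0.0571 without any 1 of the wild-type-labelled libraries). Most of this difference came from Gzma, with means of 7.36 CPM with the knockout label and 14.1 CPM with the wild-type label. Of the other tested markers, none of which passed, Cd8a, Klre1 and Klrk1 had higher means with the knockout label and Cd8b1 a lower one.

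Of 9 dendritic cell markers 5 were tested: Flt3 and Zbtb46 fell, Batf3, which activated T cells also express, rose, and Clec9a and Cd209a were at 0 in all libraries. The dendritic sum was 78.6 to 97.2 CPM with the knockout label and 88.9 to 101 CPM with the wild-type label (exact two-sided permutation p = 0.171, adjusted 0.171). The 8 CD4 T cell markers summed to 3215 to 3272 CPM with the knockout label and 3044 to 3240 CPM with the wild-type label (exact two-sided permutation p = 0.0857, adjusted 0.107, and exact p = 0.0286 without wild-type-labelled library 4), with Cd28 and Lck higher and the other 6 not passing. The part of myeloid, NK, CD8 and dendritic cells in the values of Ccr2, Cxcr3 and Cxcr6 was not tested.

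Of 16 other chemokine receptor genes, 7 passed the filter, and of these 2 rose, 1 fell and 4 did not pass, with a median log2 fold change of -0.20. Cxcr2, known as a neutrophil receptor, rose by 0.51 (SE 0.15, edgeR adjusted p = 0.0157) and Cxcr1 fell by 0.27 on the log2 scale (SE 0.0996, edgeR adjusted p = 0.0443). Without knockout-labelled library 3 the count of these genes that passed was 1. The 9 not tested had at most 14 counts in any library.

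The receptor genes of distal chromosome 9 lie in a group there. Ccr8, Cxcr6 and Ccr2 fell, Ccr1, Ccr3 and Ccr9 did not pass, and Cx3cr1, Ackr2, Xcr1 and Ccr1l1 were too low to test. Cxcr6 and Ccr2 are 0.29 Mb apart.

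Most ligand genes were near 0 in these cultures. Of 23, 7 passed the filter, of which 1 rose, 2 fell and 4 did not pass (median log2 fold change -0.48), and 6 had no count in any library. Ccl22, a ligand of CCR4, was the most abundant and fell to 25.3 ± 1.04 CPM with the knockout label, against 37.7 ± 3.20 CPM with the wild-type label (SD, n = 4 each; log2 fold change -0.58, SE 0.088, edgeR adjusted p = 2.72e-05). Ccl5, a T cell chemokine, fell to 1.74 ± 0.46 CPM with the knockout label, against 4.15 ± 0.69 CPM with the wild-type label (log2 fold change -1.24, SE 0.24, edgeR adjusted p = 0.000444), and Ccl3 rose (0.84, SE 0.29, edgeR adjusted p = 0.032). Ccl20, the ligand of CCR6, had a mean of 0.016 CPM with the knockout label and no count with the wild-type label.

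Of 30 genes that carry or limit receptor signals, 29 were tested: 6 rose, 3 fell and 20 did not pass, 31% against 30.4% of all genes (median log2 fold change 0.056). Arrb1, the arrestin that uncouples and internalizes activated receptors, rose to 327 ± 27.1 CPM with the knockout label, against 188 ± 15.1 CPM with the wild-type label (SD, n = 4 each; log2 fold change 0.80, SE 0.071, edgeR adjusted p = 1.46e-08). Rgs16, which shortens G protein signals, rose by 1.17 from a low level (SE 0.24, edgeR adjusted p = 0.000722), and Dock2, which drives Rac in migrating lymphocytes, by 0.31 (SE 0.074, edgeR adjusted p = 0.00258). Plcb3, a phospholipase that G proteins activate, fell by 0.40 on the log2 scale (SE 0.093, edgeR adjusted p = 0.00201). The inhibitory G protein gene Gnai2, named after its values were seen, stood at 884.5 ± 27.4 CPM with the knockout label and 849 ± 15.5 CPM with the wild-type label and did not pass. Without wild-type-labelled library 2 the list had 5 called genes.

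Of 11 egress and homing genes, 4 rose, 1 fell and 6 did not pass (median log2 fold change 0.020). S1pr4, a sphingosine phosphate receptor, rose by 0.36 (SE 0.081, edgeR adjusted p = 0.00146), Cd69, which retains activated cells in lymphoid tissue, by 0.38 (SE 0.074, edgeR adjusted p = 0.00035), and Fut7, which makes selectin ligands, by 0.36 (SE 0.097, edgeR adjusted p = 0.00648). Gpr15, a homing receptor for the colon, fell by 0.87 on the log2 scale (SE 0.21, edgeR adjusted p = 0.00319). Klf2, which sustains S1pr1 in quiescent T cells, did not pass at 0.020 (SE 0.068) and was named after its values were seen.

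Of 14 transcription factors tied to helper lineages and their receptors, 3 rose, 5 fell and 6 did not pass (median log2 fold change -0.093). Gata3, the Th2 factor, rose by 0.70 (SE 0.091, edgeR adjusted p = 3.55e-06) while the Th2 receptors Ccr4 and Ccr8 fell. Stat3 rose by 0.21 (SE 0.059, edgeR adjusted p = 0.0084), and Maf and Hif1a fell by 0.39 and 0.29 on the log2 scale (SE 0.071 and 0.073, edgeR adjusted p = 0.000207 and 0.00374). Named after their values were seen, the Th1 factor Tbx21 had 0.34 (SE 0.12, edgeR adjusted p = 0.0424) and the follicular helper factor Bcl6 -0.38 (SE 0.13, edgeR adjusted p = 0.0289). These changes have the sign of those of Cxcr3 and Cxcr5. The list count was 3 with knockout-labelled libraries 2 and 3 alone and 4 without knockout-labelled library 1 or 4 or wild-type-labelled library 2, and 5 without wild-type-labelled library 3.

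For each called receptor, the genes with the most similar profile were sought among 9823 others by the root mean square distance between centred log2 CPM values over the 8 libraries. The nearest were H2-Q6 and Eif2ak2 to Ccr6 (distances 0.12 and 0.124), Il18r1 and Ncf1 to Cxcr5 (0.05 and 0.069), Ecm1 and Ebi3 to Cxcr6 (0.117 and 0.13), and Ehd3 and Slamf6 to Cxcr3 (0.106 and 0.121). Those nearest to Ccr7 were Tap1 and Cish, to Ccr4 Pdcd6ip and Pik3ca, to Ccr8 Btg3 and Mgat5, and to Ccr2 Stk3 and Zcchc10, at 0.023 to 0.094. H2-Q6 and Eif2ak2 lie on chromosome 17, as do Ccr6 and Cyp1b1. Whether that shared location bears on the match was not tested. Reads of H2-Q6 can be shared with near-identical MHC class I genes, so its profile is uncertain.

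**Figure D4:**
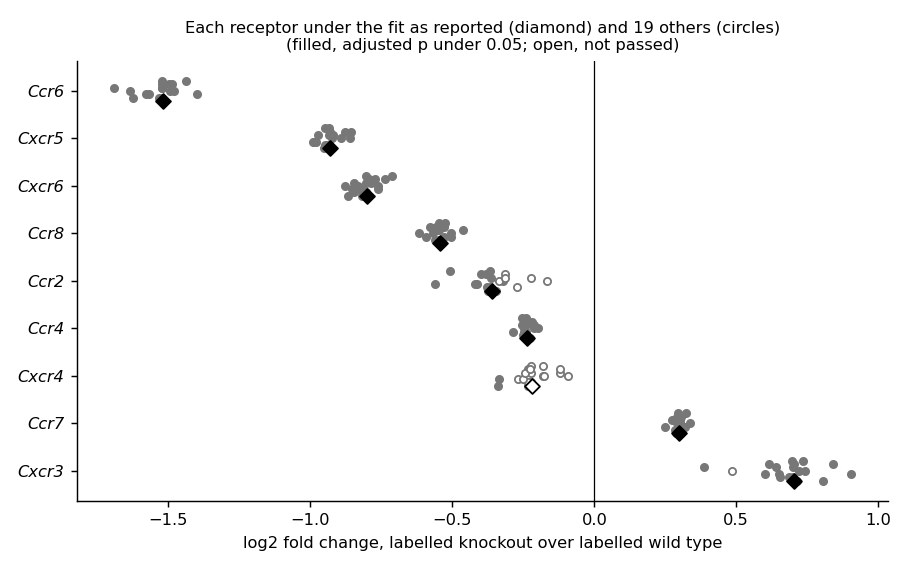
Log2 fold change of each receptor, labelled knockout over labelled wild type (horizontal axis), in the fit as reported (diamonds) and in 19 alternative fits (circles); filled symbols passed an adjusted p of 0.05. Every symbol of a receptor lies on one side of 0, Ccr6 between -1.69 and -1.40, and open circles occur for Ccr2, Cxcr3 and Cxcr4.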

How the data were processed

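The authors deposited raw counts per gene for 8 libraries (4 labelled Cyp1b1 knockout, 4 labelled wild type), with gene lengths and positions. Per the labels' protocols, poly(A) RNA was copied with random hexamers, and fastp is named in the submitters' processing notes. The aligner, counter, strandedness and build were not given in the sources used here. All 9 receptor genes have the same start and end in GENCODE M21, so positions are GRCm38.

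Genes were kept by filterByExpr (minimum count 10, minimum total 15), scaled by TMM and tested in R 4.3.3 with edgeR 4.0.16 (quasi-likelihood F-test with robust dispersion, genotype alone, two-sided), with p adjusted by Benjamini-Hochberg over all tested genes. CPM values are TMM-scaled, marker sums use library totals, and log2 CPM used a prior count of 2. Replicate pairs differed by more than sampling noise (chi-square per gene 3.69 to 12.3), so each library counted once. The steps were tested on simulated counts.

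The members and lists were chosen with earlier results of these data known. Named genes are the 9 receptors, Cyp1b1, up to 4 called genes with the smallest p of each list, and the 2 genes nearest to each called receptor averaging 5 CPM or more, without clone or predicted names. Some genes these rules name are left out. Alternatives were other scalings, filters and tools (DESeq2 1.42.0, limma 3.58.1), a replicate block, protein-coding genes alone and subsets of libraries. The B cell sum without Ighm was added after the data were seen.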

Additional observations from a re-analysis of the deposited data

How the results depend on the processing

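Of 171 refits of single receptors under alternatives, 160 kept direction and side of the threshold, 8 lost the call, 3 gained it and none changed direction. With knockout-labelled libraries 2 and 3 alone, Ccr2 (-0.17) and Cxcr3 (0.49) did not pass, 1 receptor was called higher and 3 lineage factors were called, and against wild-type-labelled libraries 2, 3 and 4 Ccr2 had -0.22. Cxcr4 passed with knockout-labelled libraries 1 and 4 alone (-0.34), against -0.094 and not passing with 2 and 3 alone, and with a replicate block (-0.23). The cause was not tested. Leaving out single libraries gave -0.51 to -0.27 for Ccr2, -0.34 to -0.12 for Cxcr4, counts of 1 to 3 for other receptors, 5 to 9 for signalling genes and 4 to 8 for lineage factors, and differences of -8.76 to -5.97 CPM for NK and CD8 markers, 53.0 to 118 CPM for CD4 T cell markers, -184 to -93.8 CPM for B cell markers (-149 with all libraries, -93.8 without wild-type-labelled library 4) and -10.9 to -4.72 CPM for dendritic cell markers (-7.77 with all libraries, -4.72 without knockout-labelled library 2). Without Ighm the B cell sum differed by -134 CPM. Same-numbered libraries correlated at 0.0906, 0.0507, 0.0524 and 0.0543 in their deviations from the label means. Differently numbered ones correlated at -0.0931 to 0.0575. Whether the numbers mark pairs was not tested, and the fit as reported did not pair them. The replicate block raised all calls to 4936 of 14428 genes, against 4380. It changed no receptor call other than that of Cxcr4. The low counts of most ligands limit what can be said of them.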
